A study of Mus musculus with 7 samples.

Results

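The proteasome genes examined here were all genes of the deposited table whose symbol begins with Psm, a letter from a to g and a digit, and they numbered 45 of 23930 genes. The libraries came from cells labelled as satellite cells, the stem cells of skeletal muscle, sorted by fluorescence from the hind limbs of inducible Pax7-GFP mice, in which tamoxifen switches on GFP in cells that express Pax7. All mice received tamoxifen and spent 4 weeks, from 12 to 16 weeks of age, either in normocapnia (3 libraries, NC1 to NC3) or in hypercapnia (4 libraries, HC1 to HC4). The methods give room air for normocapnia, 10% CO2 for the hypercapnia chamber, and collection 3 days after cardiotoxin injury in both groups. The sample labels do not state the injury, and the name of the deposited table carries a time of 40 h, which the methods do not explain. The labels write the strain as C57BL/6 for NC1 and with a different last number for each other library, up to C57BL/12 for HC4. They tie no library to a single animal, so the p-values below measure the spread between these libraries.

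The proteasome degrades proteins tagged with ubiquitin. Its core particle is a barrel of 2 outer alpha rings and 2 inner beta rings, and in each beta ring 3 subunits carry the catalytic sites. A regulatory particle caps the barrel: its base holds a ring of ATPases that unfold the substrate, and its lid removes the ubiquitin chain. In the immunoproteasome, which interferon gamma induces and which is abundant in immune cells, Psmb9, Psmb10 and Psmb8 take the places of the catalytic subunits Psmb6, Psmb7 and Psmb5 and shift the peptides made toward those that MHC class I molecules present. In skeletal muscle the proteasome is known as a main route of protein breakdown during wasting, and satellite cells need it to divide and differentiate.

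Sorted by role, the 45 genes comprised 5 of the alpha ring, 4 noncatalytic subunits of the beta ring, 2 constitutive catalytic subunits (Psmb6 and Psmb7), the 3 immunoproteasome subunits, 2 tissue-specific core subunits, 6 base ATPases, 3 further base subunits, 8 lid subunits, 3 base and 3 core assembly chaperones, 2 genes of the interferon-inducible activator PA28, and 3 other activators or regulators. The 1 gene left, Psmc3ip, a meiotic recombination factor, matched by name alone. Psma3, Psma5, Psmb5, Psmg3 and Psme2 were not analysed here. The alpha ring, beta ring, Psmb6 and Psmb7, base and lid are counted together below as the 28 constitutive subunits.

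Promoter sequence from RefSeq (GRCm38.p6, 250 bases before to 50 bases after the start of each gene) could be matched to 37 of the 45 genes. It was searched on both strands for the letters of 3 elements that bear on proteasome genes, counting a window once per element whether or not elements overlapped: TGACNNNGC, the antioxidant response element bound by NRF1 (Nfe2l1) and NRF2 (Nfe2l2); the interferon-stimulated response element; and TTCNNNGAA, the gamma-activated site, an element of genes that answer to interferon gamma. The antioxidant element was found for 5 of the 37 genes (13.5%, against 12.4% of 32851 promoter windows). The interferon element was found for 5 (13.5%, against 3.44%) and the gamma-activated site for 3 (8.11%, against 8.30%). Members are counted by gene and the background by window. These are matches of letters only. Written 5′ to 3′ on the strand of the gene, with the matched letters in capitals, these are the stretches before the start of Psmb8 (an immunoproteasome subunit), Psmb6 (a constitutive catalytic subunit), Psmg1 (a gene whose groups lay apart) and Psmd9 (which held 2 of the elements).
Psmb8, gamma-activated site, chr17:34198078-34198126 (plus strand): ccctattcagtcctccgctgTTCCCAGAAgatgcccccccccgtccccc
Psmg1, gamma-activated site, chr16:95991175-95991210 (minus strand): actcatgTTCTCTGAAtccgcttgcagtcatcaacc
Psmb6, antioxidant response element, chr11:70525328-70525356 (plus strand): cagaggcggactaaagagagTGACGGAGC
Psmd9, antioxidant response element, chr5:123228139-123228187 (plus strand): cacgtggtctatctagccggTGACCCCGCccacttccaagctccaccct
Psmd9, interferon-stimulated response element, chr5:123228011-123228060 (plus strand): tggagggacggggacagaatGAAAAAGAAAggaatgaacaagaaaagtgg
No match was found in the windows of Psmb9 and Psmb10, and Psmb7 had no matched window. The remaining genes with a match were Psmc6, Psmd12 and Psme4 for the antioxidant element, Psmb3, Psmd4, Psme1 and Psmg4 for the interferon element, and Psmd2 for the gamma-activated site.

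Values are reads scaled to a common total of 1000000 per library (RPM) and assigned to a panel with 1 amplicon per gene, so levels are compared between libraries for a gene and not between genes. Totals ran from 14527445 to 23388710 reads per library, and 1 read was worth 0.0428 to 0.0688 RPM. Several features of the libraries bear on every result below. Pax7 itself stood at 268 RPM in NC1 and at 4.34 to 79.5 RPM in the other 6 libraries, whereas the summed level of 12 macrophage genes was 12445 to 35162 RPM in normocapnia and 20310 to 25203 RPM in hypercapnia, of which the lysozyme gene Lyz2 alone gave 8354 to 29108 RPM. The 12 satellite cell genes together gave 604 to 4350 RPM in normocapnia and 813 to 1701 RPM in hypercapnia. Of these sums, Sdc4 alone gave 441 to 781 RPM in normocapnia and 429 to 450 RPM in hypercapnia. Which cells the proteasome transcripts came from is not known, and in bulk RNA fewer cells of a type and less RNA per cell cannot be told apart. NC3 stood apart from the rest, and Xist, the RNA of the inactive X chromosome, was at 445 to 701 RPM in NC1, NC2, HC1 and HC2 and at or below 0.125 RPM in NC3, HC3 and HC4. The labels give no sex.

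Proteasome transcripts took a share of the reads that lay in a narrow range. All 45 genes were above 0 in every library, and 41 of them, beside 8229 of all 23930 genes, had a mean of at least 10 RPM. The 28 constitutive subunits took 0.554%, 0.521% and 0.581% of reads in the 3 normocapnia libraries and 0.537%, 0.507%, 0.595% and 0.522% of reads in the 4 hypercapnia libraries. The groups overlapped, and the highest and lowest shares were both in hypercapnia. In the plot of levels by role, most genes formed a tight cluster of libraries from which NC3 departed.

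**Figure D1:**
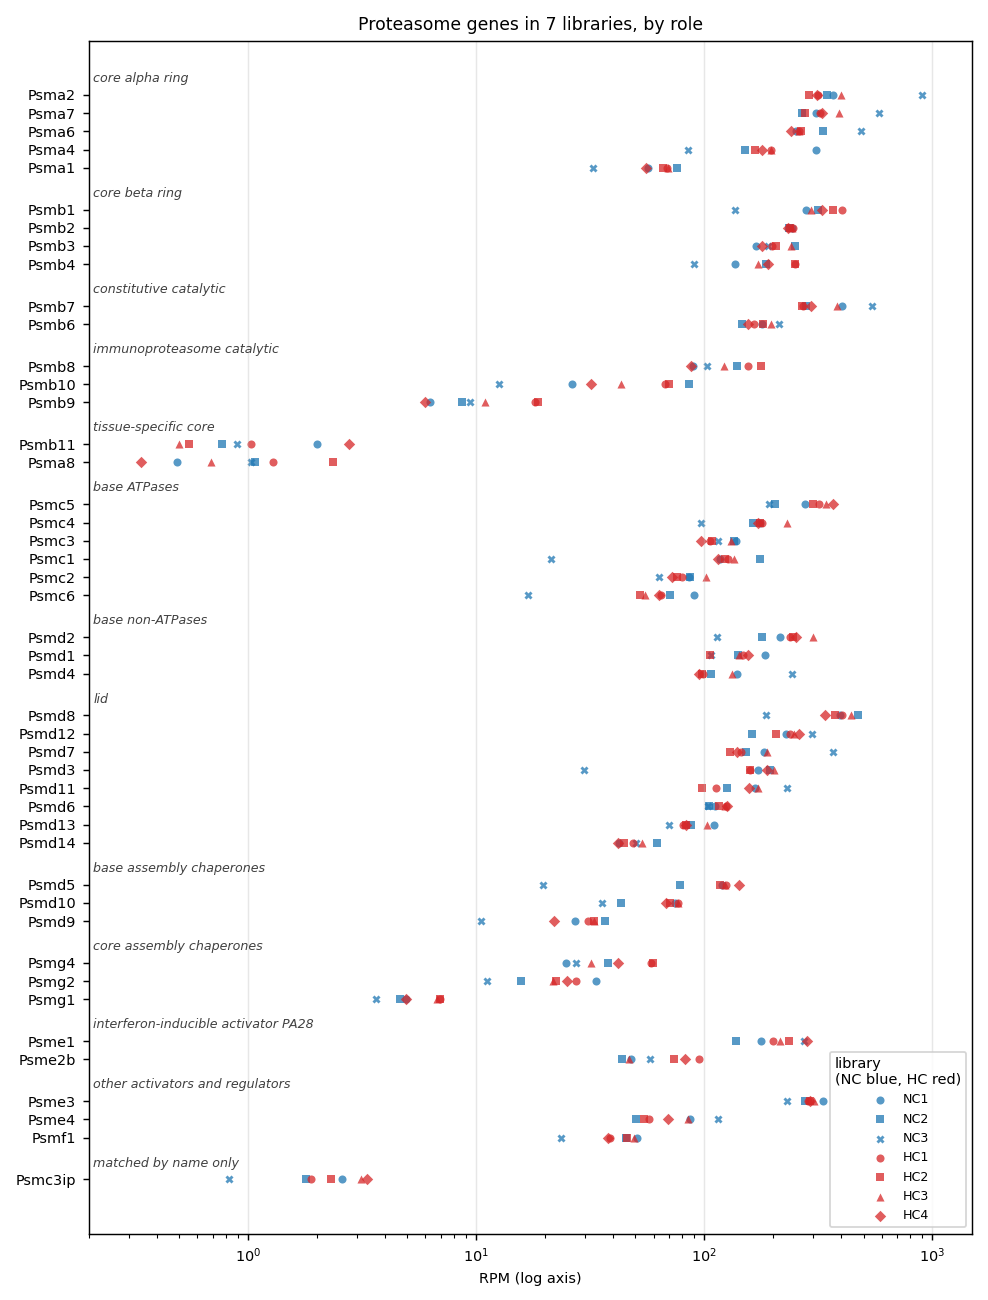
Level of each of the 45 proteasome genes (rows, by role) in RPM on a log axis, with 1 point per library: normocapnia (NC1 to NC3) in blue, hypercapnia (HC1 to HC4) in red. The hypercapnia libraries lie close together for most subunits, and the blue cross of NC3 lies far to the left for Psmd5, Psmd3, Psmc1 and Psmc6 and to the right for Psma2, Psmd7 and Psmd4.

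One member, the base subunit Psmd2, met the calling rule in limma (p under 0.05 before adjustment together with more than a 1.5-fold difference), higher in hypercapnia, and none was lower. By this rule 2.57% of all genes were called (1.43% higher and 1.14% lower), so that 1 of 45 was near the background. No member passed after Benjamini-Hochberg adjustment over all genes, the lowest adjusted p of a member being 0.712 in limma. At an unadjusted p under 0.05 alone, 4 members passed in limma (Psmc5, Psmd2, Psmd6 and Psmg1), beside 4.66% of all genes. Over the alternatives described below, that count ran from 0 to 10. In the same 4 genes just named every hypercapnia library lay above every normocapnia library, and no member had the groups apart the other way. Among the 12504 genes that averaged 1 RPM or more the groups lay apart in this way in 4.09% (higher) and 3.63% (lower).

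Over the 45 genes the log2 fold change (hypercapnia over normocapnia, on log2(RPM + 1)) had a median of 0.22, with 31 genes higher and 14 lower, and over all genes that averaged 1 RPM or more the median was 0.16. For the 28 constitutive subunits it was 0.05, with 16 higher and 12 lower, which is 0.11 below the median of all genes (difference -0.11); the sign of this difference turned with the scaling, at -0.13 after median-of-ratios scaling and 0.06 after quantile normalization. For the 3 immunoproteasome subunits the median was 0.56, that is 0.40 above that of all genes, and 0.39 and 0.28 above it under the same scalings. Without NC3 the medians were -0.10 for the constitutive subunits (9 higher, 19 lower), 0.23 for the immunoproteasome and -0.07 for all genes.

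The precision of these estimates was unequal. The 95% interval of the fold change lay wholly within 1.5-fold in either direction for 9 of the 45 genes (20%), beside 6.51% of the genes averaging 1 RPM or more. The 2 sets differ in level, since 41 of the 45 and 8229 of the 12504 genes compared averaged 10 RPM or more. Psmb2, a noncatalytic subunit of the beta ring, was the steadiest, with 244, 236 and 239 RPM in normocapnia and 245, 237, 244 and 232 RPM in hypercapnia. Its log2 fold change was 0.00, with a 95% interval from -0.06 to 0.06. Psmb2 is named outside the rule for named genes, because of its values.

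**Figure D2:**
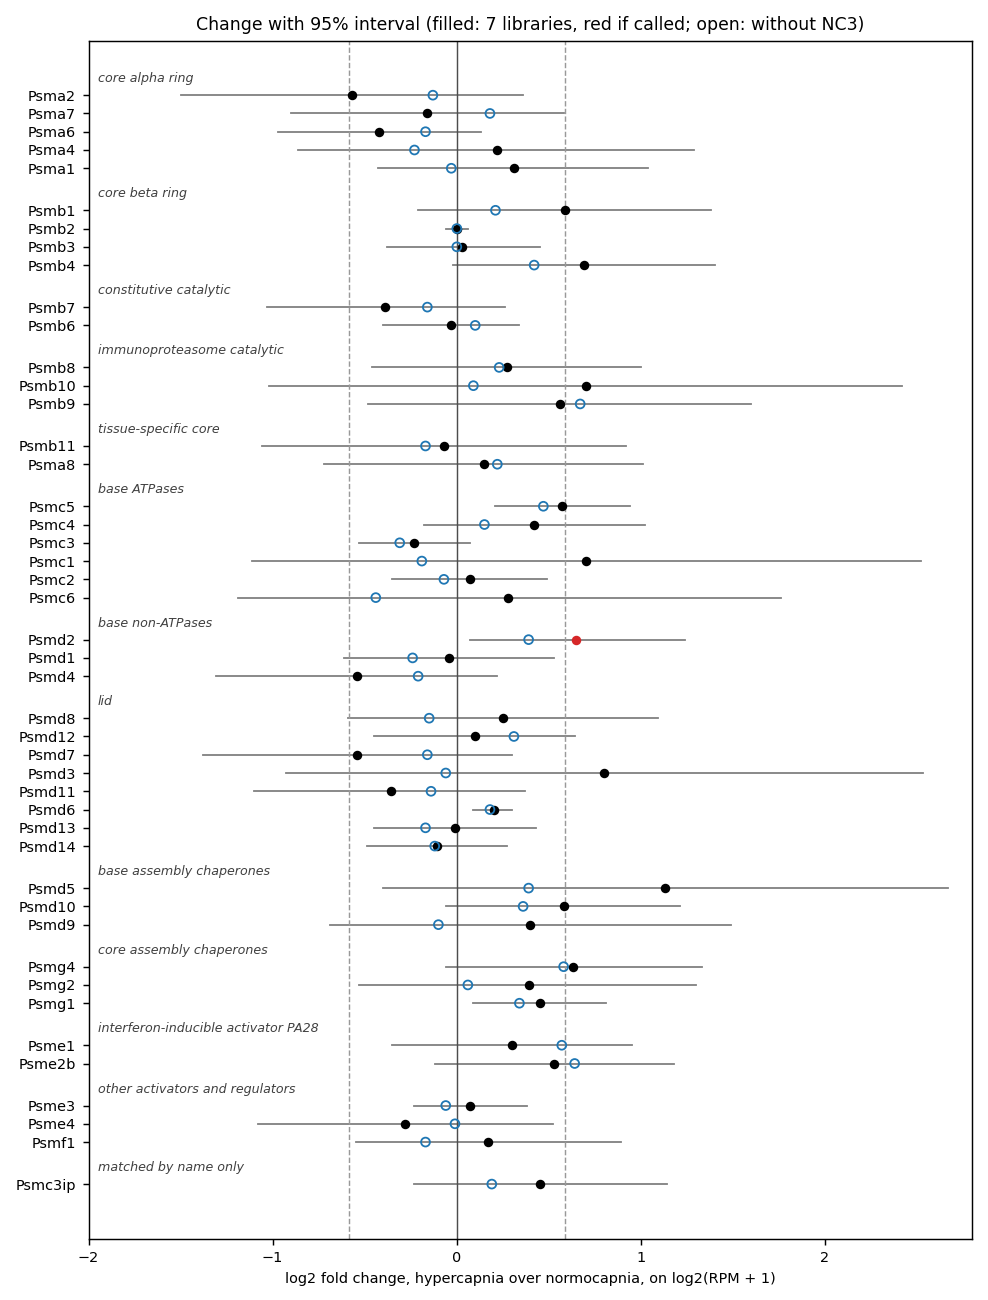
Log2 fold change of each proteasome gene, hypercapnia over normocapnia, on log2(RPM + 1), with its 95% interval from limma (filled points, red where called); open blue circles give the value without NC3 and dashed lines mark a fold of 1.5. Psmd2 is the only gene called, Psmb2 has the narrowest interval, and the open circles of Psmc1, Psmd3 and Psmd5 lie far to the left of the filled points.

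Of the immunoproteasome subunits, none was called. Psmb9, which replaces the caspase-like subunit, was at 6.29, 8.68 and 9.43 RPM in normocapnia and at 18.1, 18.7, 11.0 and 5.96 RPM in hypercapnia. HC1 and HC2 were above all 3 normocapnia libraries, while HC4 was the lowest of all 7. The log2 fold change was 0.56 with a standard error of 0.42 (limma, adjusted p = 0.915).

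Psmb10, which replaces the trypsin-like subunit, was at 26.2, 85.6 and 12.6 RPM in normocapnia and at 67.3, 70.1, 43.2 and 31.9 RPM in hypercapnia. The highest and the lowest library were both normocapnic. Its log2 fold change was 0.70 with a standard error of 0.69. It was 0.09 without NC3 and 1.42, and called, without NC2.

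Psmb8, which replaces the chymotrypsin-like subunit and whose promoter held the gamma-activated letters shown above, was at 89.2, 139.6 and 103 RPM in normocapnia and at 156, 178, 122 and 87.9 RPM in hypercapnia. Again HC1 and HC2 were the highest libraries and HC4 the lowest, and the groups overlapped. The log2 fold change was 0.27 with a standard error of 0.29.

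All 3 immunoproteasome subunits were thus higher in HC1 and HC2 than in HC3 and HC4, which is the split that Xist made within hypercapnia. This split is common: 8 of the 45 members (17.8%) and 23.6% of the genes averaging 1 RPM or more had it, and 10 members (22.2%) and 44.5% of those genes had the reverse. The other members with it were Psmb1, Psmb4, Psma8, Psmg1 and Psmg4. Of the 12 macrophage genes 8 made the same split (Cd68, Adgre1, Cd14, C1qa, C1qb, C1qc, Mrc1 and Fcgr1), none made the reverse one, and the list summed to 25203 and 21783 RPM in HC1 and HC2 and to 20310 and 20640 RPM in HC3 and HC4. Adgre1 was at 392 and 429 RPM in HC1 and HC2 and 151 and 184 RPM in HC3 and HC4, against 109, 149 and 70.5 RPM in normocapnia. It was the 1 macrophage gene called, beside 2.57% of all genes (log2 fold change 1.31, SE 0.49). Without NC3 it was not called (1.03) and Cd68 was (0.90). The sums of 5 other lists split the other way. Endothelial genes summed to 77.7 and 60.0 RPM in HC1 and HC2 and to 578 and 442 RPM in HC3 and HC4, and satellite cell genes to 868 and 813 RPM and to 1701 and 1392 RPM. Neutrophil genes summed to 114 and 78.3 RPM and to 294 and 198 RPM, fibro-adipogenic genes to 1306 and 1132 RPM and to 2303 and 2747 RPM, and myofiber genes to 734 and 386 RPM and to 1351 and 2511 RPM. Gene by gene, 8 of 8 endothelial, 12 of 12 satellite cell, 6 of 8 neutrophil, 4 of 7 fibro-adipogenic and 7 of 8 myofiber genes made this reverse split. Col3a1, a fibro-adipogenic gene, was higher in HC1 and HC2. Dcn alone gave 188 and 169 RPM and 1050 and 1356 RPM of the fibro-adipogenic sums. Lymphocyte genes, 9 in the table, summed to at most 7.18 RPM in any library. With Xist as a covariate, a fit chosen after seeing the data, the immunoproteasome median was 0.67 and none of the 3 genes was called. What part these cell types have in the immunoproteasome values was not tested.

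Of the constitutive counterparts, Psmb6 did not make the split and Psmb7 made the reverse one. Psmb6 was at 179, 146 and 213 RPM in normocapnia and at 165, 181, 196 and 156 RPM in hypercapnia, with overlapping groups. Its log2 fold change was -0.03 with a 95% interval from -0.40 to 0.34. Psmb7 was at 401, 279.6 and 544 RPM in normocapnia and at 270.5, 268, 383 and 295 RPM in hypercapnia, for a log2 fold change of -0.39 with a standard error of 0.26, which was -0.16 without NC3 and -0.63, and called, without NC2. NC3 was the highest library for both.

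The exchange of subunits was compared as a log2 ratio within each library, taken of RPM + 1. The ratio of Psmb9 to Psmb6 was -4.63, -3.93 and -4.36 in normocapnia and -3.11, -3.21, -4.04 and -4.50 in hypercapnia. The means were -4.30 ± 0.35 (SD, n = 3) and -3.71 ± 0.67 (SD, n = 4), and the difference of 0.59 had an exact permutation p of 0.257 (two-sided). The ratio of Psmb10 to Psmb7 was -3.88, -1.70 and -5.33 in normocapnia and -1.99, -1.92, -3.12 and -3.17 in hypercapnia. Here the difference of 1.09 had an exact permutation p of 0.371, and it was 0.24 without NC3 and 2.06 without NC2. After quantile normalization the differences were 0.27 for Psmb9 to Psmb6 and 0.88 for Psmb10 to Psmb7. Adjusted over the 2 pairs compared, both p-values were 0.371 by the Benjamini-Hochberg method in this exact test. The smallest p that 3 against 4 libraries allow is 0.0286. In both ratios HC1 and HC2 stood above HC3 and HC4, and hypercapnia and normocapnia overlapped.

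**Figure D3:**
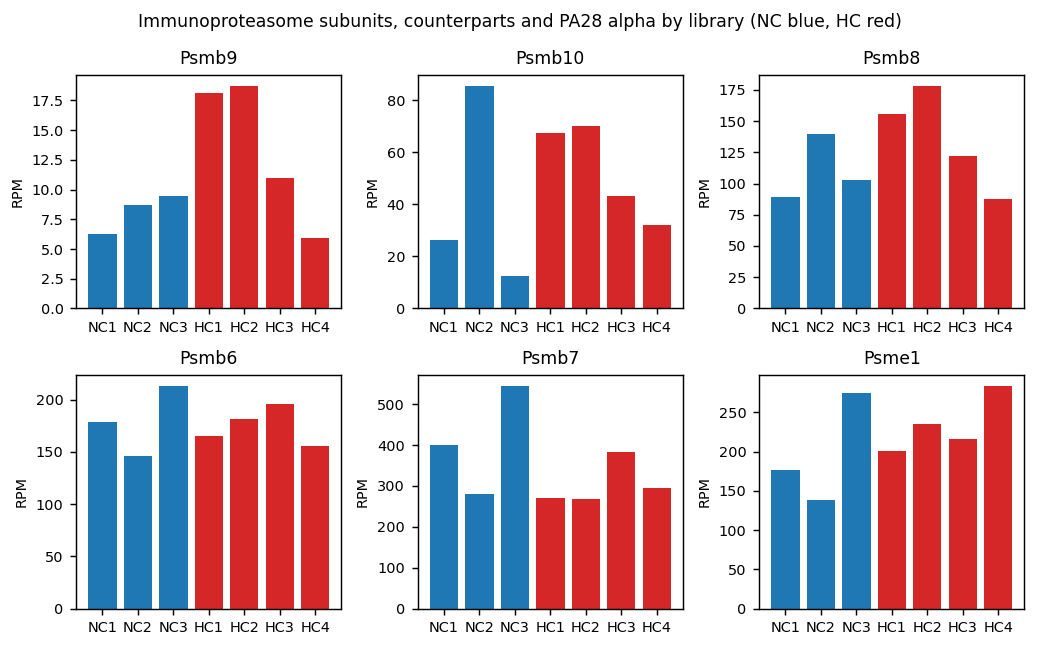
RPM of the immunoproteasome subunits Psmb9, Psmb10 and Psmb8, the constitutive catalytic subunits Psmb6 and Psmb7, and the PA28 subunit Psme1, with 1 bar per library (normocapnia blue, hypercapnia red) and axes from 0. The top row shows HC1 and HC2 above HC3 and HC4, at 18.1 and 18.7 against 11.0 and 5.96 RPM for Psmb9, a split that Psmb6 does not show and that is reversed for Psmb7.

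PA28 is an interferon-inducible ring that opens the core particle without ATP and is linked to antigen processing. Its alpha subunit gene Psme1 was at 177, 138 and 275 RPM in normocapnia and at 200.3, 235, 216 and 284 RPM in hypercapnia. NC3 lay among the highest libraries, and without it every hypercapnia library exceeded both normocapnia libraries. The log2 fold change was 0.30 (SE 0.26), and 0.57 without NC3 and 0.07 without NC2. Psme2b, a near-identical copy of the beta subunit gene Psme2, was at 47.9, 43.8 and 58.1 RPM in normocapnia and at 94.6, 73.8, 46.9 and 82.3 RPM in hypercapnia. Reads of the copy and of Psme2 may not be told apart, so this value is uncertain as to gene. Its log2 fold change was 0.53 (SE 0.26), with HC3 inside the normocapnia range. Psme2b was called when HC3 was left out.

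Among the constitutive core subunits no gene was called. Psma6 of the alpha ring, the ring that gates entry to the core, was at 253, 331 and 486 RPM in normocapnia and at 260.5, 264.7, 261.5 and 239.6 RPM in hypercapnia. The hypercapnia libraries lay close together and the spread was in normocapnia, for a log2 fold change of -0.42 (SE 0.22). It was -0.17 without NC3 and -0.64, and called, without NC1. Over the 5 alpha ring genes the values ran from -0.57 to 0.31. Psmb4, a noncatalytic beta ring subunit, was at 136, 186 and 90.3 RPM in normocapnia and at 250.4, 251, 173 and 190.5 RPM in hypercapnia. Only HC3 fell below the highest normocapnia library. Its log2 fold change was 0.69 (SE 0.28), above the fold threshold, and its unadjusted p in limma was 0.0546, just over 0.05 (adjusted p = 0.915). The log2 fold change was 0.42 without NC3 and 0.94, and called, without NC2. Over the 4 beta ring genes the range was 0.00 to 0.69.

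In the regulatory particle, 3 genes had the groups apart, namely 1 of 6 base ATPases, 1 of 3 further base subunits and 1 of 8 lid subunits. All were higher in hypercapnia, as were 4.09% of the genes averaging 1 RPM or more. Psmd2, a large scaffold of the base that receives ubiquitinated substrates and the shuttle proteins carrying them, was at 215, 179 and 113 RPM in normocapnia and at 238, 245, 299.6 and 253 RPM in hypercapnia. Every hypercapnia library exceeded every normocapnia library, by 1.57-fold on average (log2 0.65, SE 0.23, limma, adjusted p = 0.915). The lowest value was that of NC3, and without it the log2 fold change was 0.39, below the fold threshold. After median-of-ratios scaling it was 0.51, also below it.

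Psmc5, 1 of the 6 ATPases that unfold the substrate, was at 277, 205 and 193 RPM in normocapnia and at 318, 301, 341 and 366 RPM in hypercapnia. It was higher in 4 of 4 hypercapnia libraries, by a log2 fold change of 0.57 (SE 0.15, limma, adjusted p = 0.827), just under the fold of 1.5. Without NC3 the value was 0.47. Psmc5 was called without NC1 (0.73), without HC1 (0.59), without HC2 (0.62) and after quantile normalization (0.59). Its unadjusted p in limma was 0.0090 with all libraries, 0.062 with the 1 RPM filter and 0.061 with the replicate number as a block. It was 0.094 and 0.145 in edgeR with and without a filter, and 0.060 in DESeq2. Apart from the main fit, these p-values missed the threshold of the calling rule, and those of all other alternatives met it. The other 5 ATPases ran from -0.23 to 0.70.

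Psmd6, a structural subunit of the lid, was at 112, 105 and 104 RPM in normocapnia and at 125, 116, 123 and 126 RPM in hypercapnia. The groups lay apart by a small amount, with a log2 fold change of 0.20 (SE 0.04, limma, adjusted p = 0.712). Relative to the median of all genes this was 0.04, and 0.01 after median-of-ratios scaling, about the difference of a typical gene in those fits. Psmd6 stood further from the median of genes averaging 1 RPM or more in other fits. It was 0.19 beside -0.01 after quantile normalization and 0.18 beside -0.07 without NC3. With the filter at 1 RPM its unadjusted p was 0.43 in limma. The other 7 lid genes, among them the deubiquitinase Psmd14 at -0.11, ran from -0.54 to 0.80.

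All 6 assembly chaperones had a mean log2 fold change above 0, from 0.39 to 1.13, and none was called. Psmg1, which with Psmg2 guides the building of the alpha ring, was at 4.91, 4.66 and 3.65 RPM in normocapnia and at 6.93, 6.93, 6.75 and 4.94 RPM in hypercapnia. The groups lay apart, though HC4 (4.943 RPM) exceeded NC1 (4.906 RPM) by less than the worth of 1 read. The log2 fold change was 0.45 (SE 0.14, limma, adjusted p = 0.915), and 0.04 after quantile normalization. Psmd10, also named gankyrin, a chaperone of the base, was at 74.5, 43.1 and 35.8 RPM in normocapnia and at 76.6, 70.6, 76.9 and 68.1 RPM in hypercapnia. NC1 lay within the hypercapnia range and the log2 fold change was 0.58 (SE 0.25), with 0.36 without NC3 and 0.88, and called, without NC1. Without NC3 the 6 chaperones ran from -0.10 (Psmd9) to 0.58 (Psmg4).

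The remaining members showed no call. Psme4, the activator PA200, known for its part in sperm and in the repair of DNA, was at 86.7, 50.2 and 115 RPM in normocapnia and at 57.1, 54.3, 84.8 and 69.5 RPM in hypercapnia, for a log2 fold change of -0.28 (SE 0.32), which was -0.01 without NC3 and -0.60 without NC2. The nuclear activator Psme3 and the regulator Psmf1 stood at 0.07 and 0.17. The testis-specific alpha subunit Psma8 and the thymus-specific beta subunit Psmb11 were at 0.339 to 2.78 RPM in every library, and Psmc3ip at 0.826 to 3.32 RPM.

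NC3 departed from the other libraries gene by gene, even though the share of reads that the subunits took in it was like that of the rest. Against the median of the other 6 libraries, 11 of the 28 constitutive subunits lay more than 1.5-fold lower in NC3 and 7 more than 1.5-fold higher, while HC1, HC3 and HC4 had none in either direction. The largest shortfalls on log2(RPM + 1) were -2.57 for the base chaperone Psmd5, -2.55 for the lid subunit Psmd3 and -2.50 for the ATPase Psmc1. The largest excesses were 1.44 for Psma2 of the alpha ring, 1.30 for Psmd7 of the lid and 1.24 for the ubiquitin receptor Psmd4. Subunits that occur in fixed proportion in the assembled particle thus departed in opposite directions within NC3. Psmd3, for example, was at 173, 195 and 29.8 RPM in NC1, NC2 and NC3 and at 158, 159, 201 and 188 RPM in hypercapnia. Psma2 was at 367, 345 and 902 RPM and at 317, 289, 397 and 312 RPM. The genes of this paragraph are named outside the rule for named genes, because of their values.

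Other genes departed by a like amount in NC3. The median absolute departure of the 41 proteasome genes at or above 10 RPM was 0.89 in NC3 and 0.14 to 0.30 in the other libraries, and over the 8229 genes at that level it was 0.86 in NC3 and 0.23 to 0.40 in the others. Without NC3, 14 of 45 members (31.1%) had an interval within 1.5-fold, beside 1624 of the 12504 genes averaging 1 RPM or more. Likewise no member was called beside 2.57% of all genes, and 5 had an unadjusted p under 0.05 in limma beside 6.79%. The groups then lay apart in 5 members higher and 2 lower in hypercapnia, beside 5.98% and 10.1% of genes averaging 1 RPM or more.

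**Figure D4:**
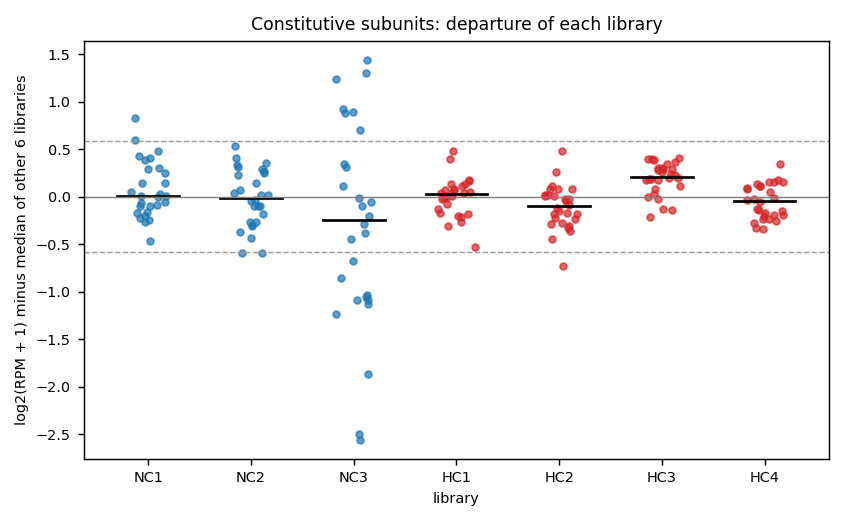
Departure of each of the 28 constitutive subunits from the median of the other 6 libraries, on log2(RPM + 1), with 1 point per gene and library (normocapnia blue, hypercapnia red), bars at the medians and dashed lines at 1.5-fold. The points of NC3 spread from -2.55 to 1.44 and those of the 4 hypercapnia libraries lie close to 0, with 1 point of HC2 beyond the lower dashed line.

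Genes that act with the proteasome gave few calls. When the proteasome is inhibited, NRF1 (Nfe2l1), freed by Ngly1 and Ddi2, turns on proteasome genes. Of 9 genes of this pathway in the table, none was called, and 3 (Nfe2l1, Ngly1 and Nfe2l2) had an unadjusted p under 0.05 in limma, all with values lower in hypercapnia, beside 4.66% of all genes. Without NC3 none of these 3 passed it, though Ngly1 went only from -0.33 to -0.27 and Nfe2l2 from -0.39 to -0.38. The median of the 9 genes was then -0.36, with 0 of them higher, against 0.09 with all libraries. For all genes averaging 1 RPM or more the medians were -0.07 and 0.16. Nfe2l1 was at 209, 168 and 286 RPM in normocapnia and at 122, 148, 167 and 149.6 RPM in hypercapnia. The groups lay apart, with HC3 just below NC2, and the log2 fold change was -0.56 (SE 0.20, limma, adjusted p = 0.915) and -0.36 without NC3. The 5 proteasome genes whose promoters held the antioxidant letters had a median log2 fold change of 0.10, beside 0.26 for the other matched members. The medians with and without the letters were 0.30 and 0.24 for the interferon element and 0.45 and 0.21 for the gamma-activated site, and none of these was tested.

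Of 16 proteasome-associated factors in the table, such as the deubiquitinases Usp14 and Uchl5 and the ubiquilin shuttles, none was called. Akirin2, which brings proteasomes into the nucleus, had the smallest p, with 133, 103 and 103 RPM in normocapnia and 78.4, 77.5, 94.6 and 93.6 RPM in hypercapnia. Its groups lay apart, with a log2 fold change of -0.38 (SE 0.13, limma, adjusted p = 0.915).

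Of the 12 genes of MHC class I antigen processing, which uses peptides from the proteasome, 1 was called, beside 2.57% of all genes. Calr, a chaperone of the endoplasmic reticulum that helps to load class I molecules, was at 813, 849.8 and 1331 RPM in normocapnia and at 1652, 1335, 1503 and 1434 RPM in hypercapnia. The log2 fold change was 0.60 (SE 0.19, limma, adjusted p = 0.915) and 0.83 without NC3, and the groups lay apart, with HC2 next to NC3. The list had 9 genes higher and 3 lower and a median of 0.65, beside 0.16 for all genes averaging 1 RPM or more. Without NC3 its median was 0.27, beside -0.07. The values included the peptide transporter genes Tap1 at 1.10 (SE 0.65) and Tap2 at 1.05 (SE 0.74). Both transporter genes were at 9.50 RPM in NC3 and at 48.7 RPM or above elsewhere, and without NC3 their values were 0.32 and 0.13. Without NC3, 11 of the 12 genes were higher, and Pdia3, also a chaperone of class I loading, went from -0.05 to 0.65 and was called together with Calr. Of the 12 genes 9 were higher in both HC1 and HC2 than in HC3 and HC4.

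Interferon signaling, which drives the immunoproteasome genes, gave no call among 10 genes. Irf1, the main activator of these genes downstream of interferon gamma, had a log2 fold change of 0.00 (SE 0.24). The receptor gene Ifngr1 had the smallest p of the list, with 348, 516 and 1038 RPM in normocapnia and 251, 228, 323 and 356 RPM in hypercapnia, a log2 fold change of -1.0 (SE 0.40, limma, adjusted p = 0.915), -0.57 without NC3, and overlapping groups.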

How the data were processed

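RNA of sorted Pax7-GFP cells was measured in 3 normocapnia and 4 hypercapnia libraries, grouped by their labels. The authors prepared Ion AmpliSeq libraries on an Ion Chef, sequenced them on an Ion S5 system and deposited 1 table of RPM, in which each library sums to 1000000. The labels name the Transcriptome Analysis Console. No aligner or build of the table is given in the sources used here, and the coordinates of promoters are those of RefSeq (GRCm38.p6).

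Whole reads were recovered from the RPM steps, with 100% of values whole within 0.05 reads. The floor of 3 reads lay at 0.128 to 0.207 RPM, which covers counting error only. Of 23930 genes, 2443 were at 0 in all libraries. No 2 libraries agreed within counting noise.

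Log2(RPM + 1) of all genes was fitted with limma 3.58.1 in R 4.3.3 without a filter, called at an unadjusted p under 0.05 and a fold above 1.5, with Benjamini-Hochberg adjustment over all genes beside it. Ratios were tested by exact permutation over libraries in scipy 1.17.1. Alternatives were pseudocounts of 0.1 and 5 RPM, median-of-ratios and quantile scaling, a filter on genes averaging under 1 RPM, edgeR 4.0.16 and DESeq2 1.42.0 on whole reads, the replicate number as a block, leaving out each library, and, chosen after seeing the data, Xist as a covariate. The scripts were tested on simulated data.

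The members and gene lists were chosen with earlier results of these data known. Values in every library are given for the immunoproteasome subunits and their counterparts, the PA28 genes, each called gene, the gene with the smallest p of each role with 3 or more members and that of each pathway list. Other members are given by ranges and counts, and marker lists by counts and summed levels. The ratio of Psmb8 to Psmb5 was planned and not run, since Psmb5 was not analysed here. Some items of the gene lists are not reported here.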

Additional observations from a re-analysis of the deposited data

Results flagged for a closer look

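In 6 of the 45 proteasome genes, 1 of the 4 hypercapnia libraries lay far from the other 3. The gap to its nearest neighbour, as a share of the whole range on log2(RPM + 1), exceeded the 95% limit of Dixon's test, which chance does in about 5% of groups. The share over all genes was not computed, so whether 6 of 45 is particular to these genes is not known. HC3 was the highest library for Psmc4 (gap 0.861 of the range, at 231 RPM against 173 to 180.0 RPM), Psmd4 (0.887, at 133 RPM against 94.9 to 98.6 RPM) and Psmd13 (0.875, at 103 RPM against 81.1 to 83.6 RPM). HC4 was the lowest for Psma6 (0.840, at 239.6 RPM against 260.5 to 264.7 RPM), Psmd9 (0.860, at 22.0 RPM against 31.1 to 32.9 RPM) and Psmg1 (0.918, at 4.94 RPM against 6.75 to 6.93 RPM).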

How the results depend on the processing

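The count of 1 proteasome gene called was 0 with a filter on genes averaging under 1 RPM (4.46% of the genes tested called) and with median-of-ratios scaling (2.56%). It was also 0 with edgeR with or without a filter (6.03% and 4.88%) and with DESeq2 (5.45%). It was 3 with quantile normalization (2.90%) and 6 with Xist as a covariate (5.50%), and stayed at 1 with pseudocounts of 0.1 and 5 RPM (3.52% and 1.83%). Leaving out 1 library gave 0 (without NC3, 2.57% of all genes) to 7 (without NC1, 8.32%), with 4 without NC2 (5.04%) and 2 without HC3 (2.39%). Psmd2 lost its call in 12 of 17 alternatives, with a log2 fold change from 0.39 to 0.85 throughout. At an unadjusted p under 0.05 alone, 4 members passed in the limma fit with all libraries. That count fell to 0 with the 1 RPM filter and with edgeR without a filter. It fell to 1 with DESeq2 and with edgeR with a filter. It rose to 10 without NC1 and with Xist as a covariate. The rest ran from 2 (without HC1 or HC2) to 7 (without NC2). No member passed an adjusted p of 0.05 in any alternative. Over all genes limma passed 0 after adjustment with all libraries, 8 without NC1 and 1 without NC3, and DESeq2 passed 29. Of all genes called, 343 were higher and 272 lower in the limma fit, 294 and 508 with edgeR, 519 and 785 with DESeq2, and 1495 and 495 without NC1.

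The median of the constitutive subunits, 0.05, was -0.12 and -0.10 with edgeR with and without a filter, -0.16 with DESeq2, and -0.10 (without NC3) to 0.15 (without NC1) with 1 library left out. The immunoproteasome median kept its sign, from 0.23 (without NC3) to 0.87. Without NC2 Psmb10 was called at 1.42, and without HC4 Psmb9 at 0.87. Psmb6 ran from -0.17 (without NC2) to 0.10 (without NC3) with 1 library left out and was 0.02 without HC4 and with the block, and Psme1 changed sign to -0.02 with DESeq2. The causes were not tested.

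Whether the replicate numbers pair the libraries is not known. The correlations of same-numbered deviations were -0.35, 0.50 and -0.04. They cannot decide it, since those of other pairs ran from -0.42 to 0.45. Xist was at 445 RPM or above in NC1, HC1, NC2 and HC2 and at or below 0.125 RPM in NC3 and HC3, so same-numbered libraries were alike in it. With the replicate number as a block, 1 member was called (Psmb4 in place of Psmd2), the medians were 0.07 and 0.87, and the exact p of the ratios were 0.25 and 0.50, of which the smallest possible is 0.25. Psma8, Psmb11, Psmc3ip and Psmg1 averaged below 10 RPM and Psmb9 averaged 11.2 RPM, so these rest on the fewest reads. The effect of depth was not compared between members.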
